A study of Secale cereale x Triticum turgidum subsp. durum with 48 samples.

Results

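A cereal grain joins tissues of different generations. The pericarp, the epidermal layer over it and the vascular bundle of the crease grow from the mother plant, whereas the embryo and the endosperm arise from double fertilization and are filial. The crease carries assimilates from the plant into the grain, the pericarp is a chlorophyll-bearing fruit wall in young grains, the endosperm stores starch and protein, and the embryo with its scutellum becomes the next plant. The labels name the tissues and not their generation, so the split into maternal and filial is textbook anatomy.

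Transcript levels of these tissues were compared in triticale, a cereal made by crossing wheat with rye, on the Affymetrix Wheat Genome array. The comparison rests on 13 of the 48 arrays of the series. The maternal side held crease (3 arrays), pericarp (2 arrays) and epiderm (2 arrays), and the filial side held embryo with attached scutellum (3 arrays) and endosperm (3 arrays). All 13 came from seeds of the cultivar AC Certa at the soft dough stage, Zadoks stage 85, on a numbered scale of cereal growth. Per the labels, the crease sample was the vascular bundle of the ventral groove after removal of most of the seed coat, the pericarp was the layer lying under the epiderm and over the endosperm, and the epiderm was the outermost layer. The labels call the replicates biological and do not say how many seeds or plants each held, so p-values measure the spread between these samples. The other 35 arrays, 11 groups of root, coleoptile, stem and leaf, served for levels outside the seed and for the estimate of spread in the fit. Root and coleoptile at stage 7 came from the cultivar AC Alta, and stems at stages 21, 45, 59 and 75 and leaves at stages 13, 23, 49, 75 and 85 came from AC Certa. All plants were kept in a growth chamber, and the labels give no treatment.

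Values are log2 signals, and a difference of 1 is a 2-fold change. Each of the 13 arrays had a median between 4.87 and 4.97. Probe sets for foreign reporter genes gave a background level of 5.99, the 95th percentile of their values, and 32.4% to 34.7% of the tested probe sets on a seed array exceeded it. Replicates of a tissue correlated at 0.981 to 0.991 across probe sets. RNA of crease and epiderm was extracted with an RNeasy Plant Mini Kit and RNA of pericarp, embryo and endosperm with a guanidine hydrochloride method, so the extraction method moved with the side except in pericarp. Crease also had the brightest hybridization spikes, at 11.28 to 11.54 against 10.54 to 11.21 in the other tissues, and the lowest difference of the 3' from the 5' probe set of gapdh, at -2.89 to -2.62 against -2.40 to -1.79. Their part in the results was not tested.

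Maternal and filial tissues did not form separate groups by their whole transcript profile. Endosperm was closer to the maternal pericarp and epiderm than to the filial embryo, and crease was about as far from the other maternal tissues as from the filial ones. Across the 61115 tested probe sets, group means of pericarp and endosperm correlated at 0.968 and those of epiderm and endosperm at 0.953. Pericarp and epiderm, both maternal, correlated at 0.936. Embryo and endosperm, both filial, correlated at 0.875, within the range of 0.863 to 0.876 covered by crease against either filial tissue and by embryo against each maternal tissue. Crease correlated with pericarp at 0.882 and with epiderm at 0.857. These values are over probe sets, which are not independent, and describe these arrays.

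**Figure D1:**
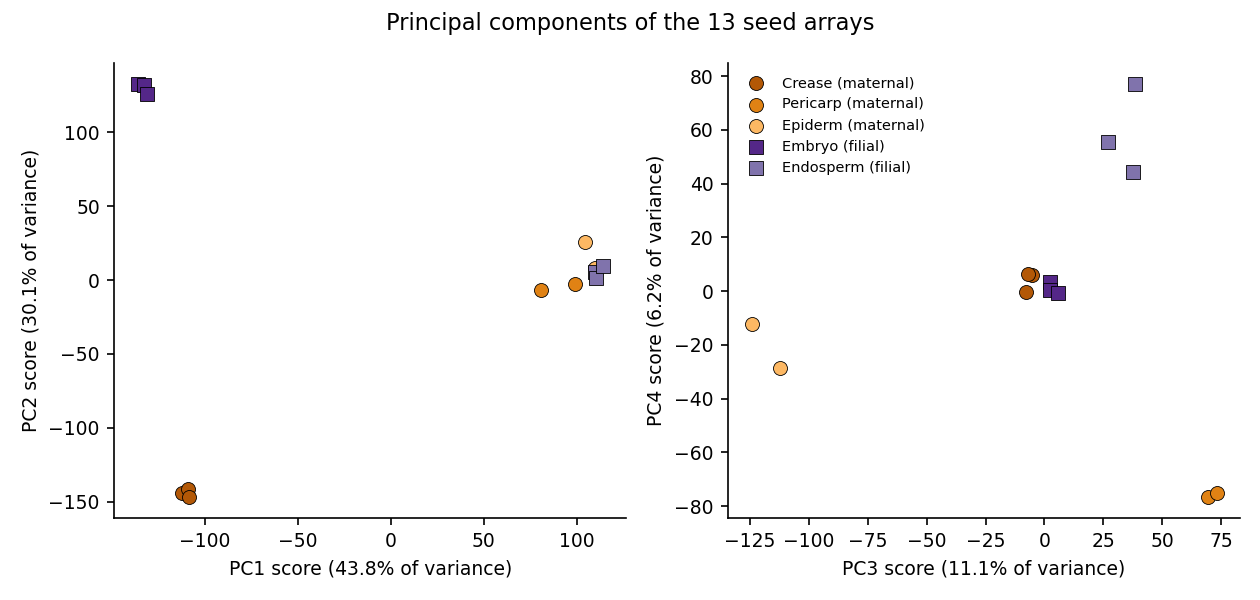
Scores of the 13 seed arrays on the first 4 principal components of the tested probe sets, with the percentage of variance on each axis. Circles are maternal arrays, squares are filial arrays and colour marks the tissue. On the left panel embryo and crease each stand alone, while pericarp, epiderm and endosperm share a corner and separate on the right panel.

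The mean of the maternal group means differed from the mean of the filial group means on 4208 probe sets, 6.89% of those tested. Of these, 1647 (2.69%) were higher and 2561 (4.19%) were lower on the maternal side, at an adjusted p under 0.05 by limma and a difference of at least 1. In dissected tissue, fewer cells of a type and less RNA per cell cannot be told apart. With each array centred on its hybridization spikes, which moved the median of all probe sets from 0.05 to -0.29, the split was 975 higher and 5267 lower. Within the guanidine hydrochloride method, pericarp against the mean of embryo and endosperm gave 2905 higher (4.75%) and 3179 lower (5.2%) probe sets, together 9.96% of those tested. Crease and epiderm together against the same filial mean gave 1838 higher (3.01%) and 3613 lower (5.91%), together 8.92%.

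A call in the mean did not usually describe all tissues of a side. Of the 1647 higher probe sets, 322 (19.6%) had all 3 maternal group means above both filial means, and for 20 (1.21%) these means were apart by at least 1. Crease alone exceeded both filial means by at least 1 on 478, epiderm alone on 361 and pericarp alone on 72. Crease had the highest maternal mean on 759, epiderm on 665 and pericarp on 223. Their differences were larger against embryo than against endosperm, with medians of 2.37, 2.46 and 2.63 for crease, pericarp and epiderm against embryo and of 0.83, 0.62 and 0.33 against endosperm. These are summaries of probe sets chosen by the same contrast and carry no test.

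The lower probe sets were mostly highest in embryo. Embryo had the highest mean of the filial side on 1938 of the 2561, and endosperm on 623. Embryo alone exceeded all 3 maternal means by at least 1 on 1516 (59.2%), endosperm alone on 247 (9.65%) and both on 90 (3.51%). Both sides lay below the background level on 415 of the lower and 233 of the higher probe sets, where the size of a difference depends on the background.

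Pair by pair, pericarp and epiderm differed from embryo on far more probe sets than from endosperm, and crease differed from both to a like extent. Against embryo, 10605 probe sets (17.4%) were called for crease, 11476 (18.8%) for pericarp and 11937 (19.5%) for epiderm. Against endosperm, 10269 (16.8%) were called for crease, 3746 (6.13%) for pericarp and 5028 (8.23%) for epiderm. Pairs from the same side gave counts of like size, with 10066 (16.5%) between crease and pericarp, 11129 (18.2%) between crease and epiderm, 6608 (10.8%) between epiderm and pericarp and 11010 (18%) between embryo and endosperm. Lower calls outnumbered higher ones in all 6 maternal-filial pairs, most strongly for crease, with 3792 higher (6.2%) and 6813 lower (11.1%) against embryo.

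**Figure D2:**
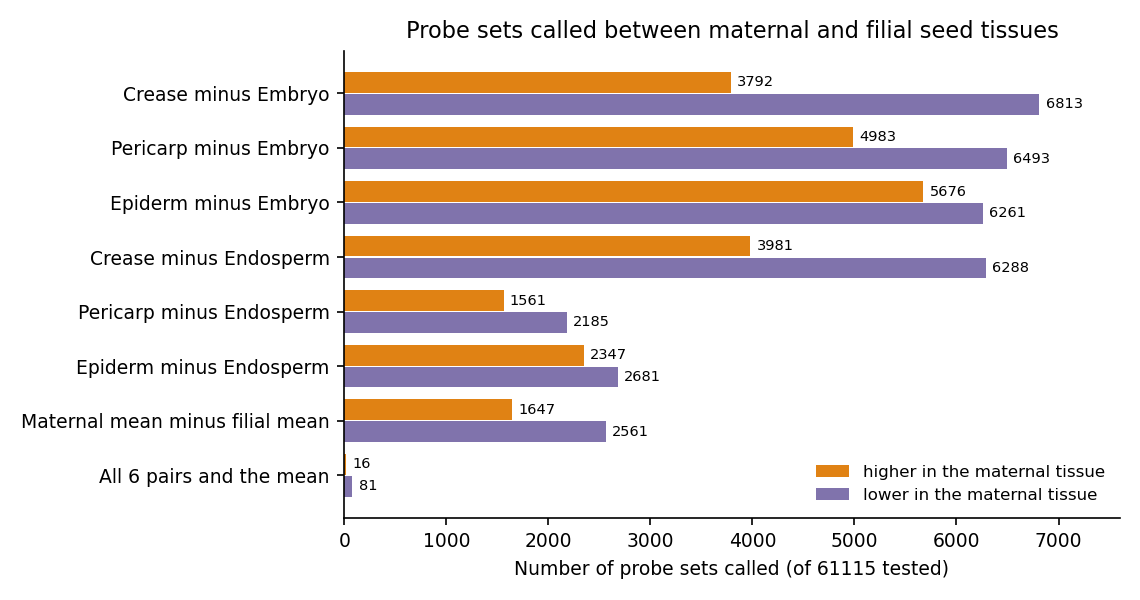
Number of probe sets called higher (orange) or lower (purple) in the first tissue of each of the 6 maternal-filial pairs, in the contrast of the side means and in all of them together, out of 61115 tested. No pair has fewer than 1561 calls in a direction, and the bottom row has 16 and 81.

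Few probe sets separated every maternal tissue from every filial tissue. Called in the mean and in all 6 pairs in the same direction were 16 probe sets higher on the maternal side (0.0262%) and 81 lower (0.133%), together 97 of 61115 (0.159%). With each array centred on its hybridization spikes, 7 higher and 133 lower held. By that choice all 97 differed in both pericarp pairs too, where the extraction method was the same, so this is no test of the method. Every maternal array lay above every filial array for 13 of the 16, and every maternal array lay below every filial array for all 81. Over all tested probe sets, such non-overlap occurred for 492 (0.805%) in the maternal direction and 617 (1.01%) in the filial direction. The rule chose the 97 by these differences and their adjusted p-values. Both are therefore given for members as a description of the fit and carry no further test.

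The distance between the sides was measured as a gap, the lowest group mean of the high side minus the highest group mean of the low side. Among the 16 higher probe sets the gap ran from 1.06 to 2.37 with a median of 1.27, and among the 81 lower ones from 1.003 to 6.15 with a median of 1.47. A gap of at least 2 was held by 1 of the 16 and by 25 of the 81. The members just inside the limit of 1 had gaps of 1.06 and 1.07 in the higher direction and of 1.003 and 1.005 in the lower. Just outside, the nearest probe sets that passed all adjusted p-values had 0.98 and 0.96 in the higher direction and 0.997 and 0.993 in the lower, among 52 and 124 that passed the p-values and missed a fold minimum. Endosperm was the limiting tissue for 15 of the 16 higher probe sets, whose smallest pair difference involved it, and for 55 of the 81 lower ones.

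**Figure D3:**
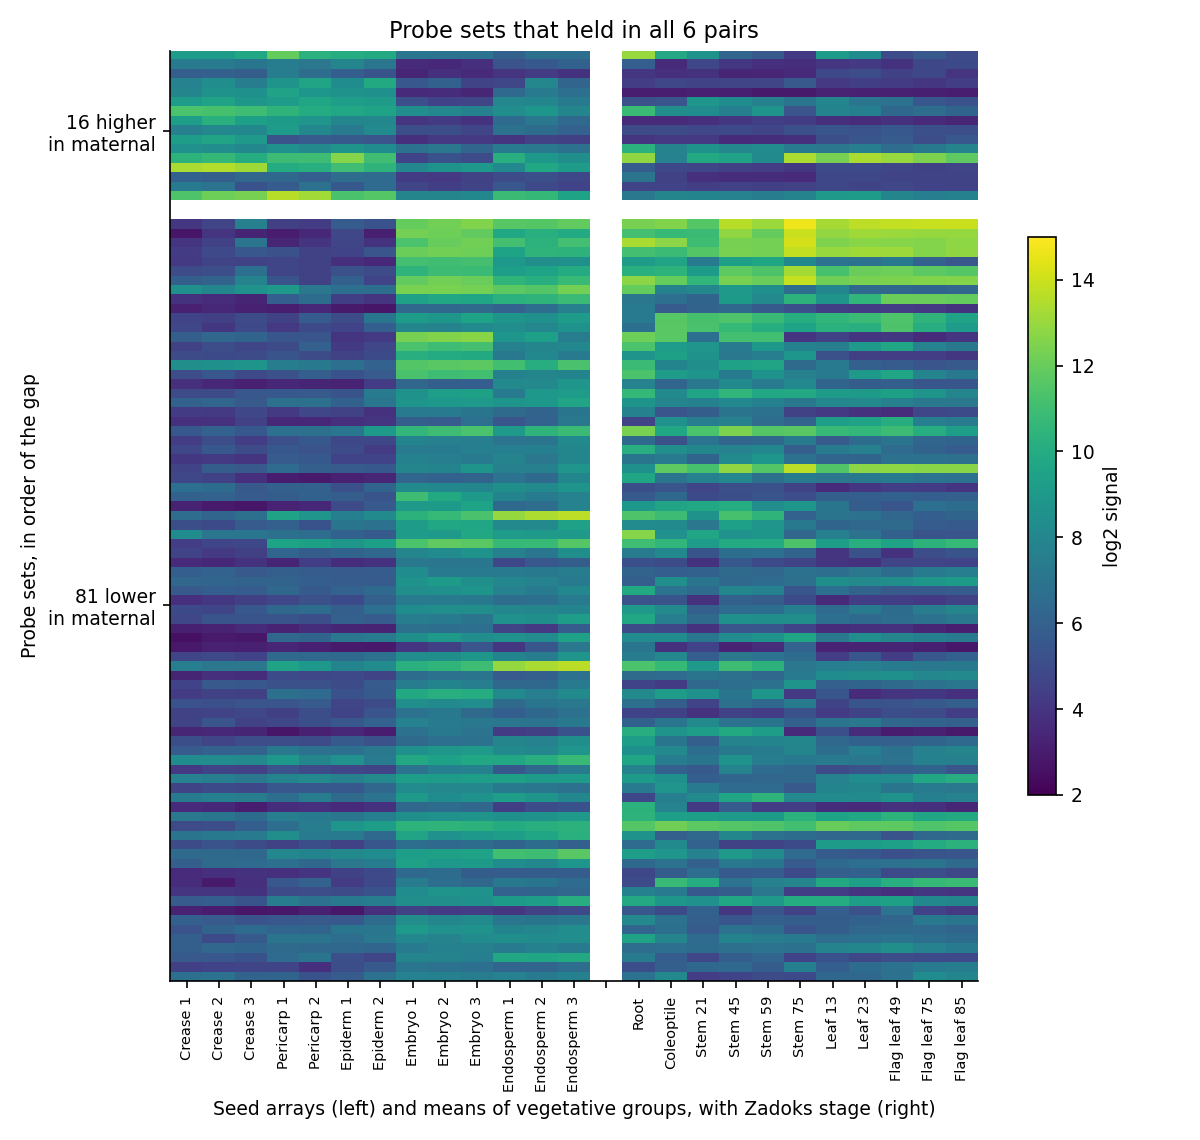
Log2 signal of the 97 probe sets that held in all 6 pairs (one line each, ordered by gap from the top of each block), on the 13 seed arrays at left and as means of the 11 vegetative groups at right. Colour runs from 2 (dark) to 15 (bright). The 7 maternal columns are brighter than the 6 filial ones in the upper block and darker in the lower block, and the first probe sets of the lower block are bright in every vegetative group.

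The gene table named few of these probe sets. It gives a gene for 1273 of the 61115 tested (2.08%), and for 5 of the 97, 2 higher and 3 lower, each only by a locus number. The gene with the largest gap in the higher direction was LOC100125738. Its signal in crease was 9.15, 9.21 and 9.74, in pericarp 11.94 and 10.29, and in epiderm 10.04 and 9.91. In embryo it was 7.10, 6.93 and 6.96, and in endosperm 6.05, 6.82 and 6.71. All 7 maternal arrays of LOC100125738 lay above all 6 filial arrays, with both sides above background. The side means differed by 3.39 (SE 0.29, limma adjusted p = 2.5e-12), a 10.5-fold difference, and pericarp against the filial mean gave 4.35. Outside the seed, LOC100125738 was brightest in root, at 12.99, and dimmest in stem at stage 75, at 4.19.

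LOC606369, the other named member of the higher set, differed by less and was nearly level within each side. Its group means were 8.35 in crease, 8.35 in pericarp and 8.52 in epiderm against 6.74 in embryo and 7.15 in endosperm. The arrays of LOC606369 did not overlap, with 8.09 the lowest maternal and 7.31 the highest filial value. The side means differed by 1.46 (SE 0.20, limma adjusted p = 1.49e-07).

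The remaining higher probe sets had no gene name and are told apart by rank in the order of the gap. The one with the largest difference of side means, at rank 12, reached 3.97 (SE 0.24, adjusted p = 3.28e-16). It was near 5 in embryo alone, with 4.63, 5.29 and 4.97. In endosperm it read 10.16, 8.94 and 8.48, and its maternal arrays ran from 10.07 in crease to 12.62 in epiderm, so that 1 endosperm array overlapped the maternal side. The probe set at rank 5 differed by 3.52 (SE 0.13, adjusted p = 1.98e-22) and read 7.94, 8.67 and 8.50 in crease, 9.50 and 8.85 in pericarp, and 8.70 and 8.52 in epiderm. In embryo it read 3.56, 3.64 and 3.39, and in endosperm 6.46, 7.39 and 6.75. Its highest vegetative array was 3.73, so on these arrays it exceeded background in the seed alone, and there in every tissue except embryo.

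The higher set was not uniform within the maternal side. Ranks 10 and 13 were crease probe sets first, with means of 9.29 and 13.33 in crease against 5.53 and 10.09 in pericarp and 5.54 and 10.72 in epiderm. Of the seed tissues, rank 10 was above background in crease alone, with 4.02 in embryo and 4.32 in endosperm. Its pericarp and epiderm differences from the filial tissues thus lie below background. Rank 16 was brightest in pericarp, at 13.40 against 11.96 in crease and 11.42 in epiderm. Pericarp had the highest maternal mean on 7 of the 16, crease on 5 and epiderm on 4. Embryo lay below endosperm on 15 of the 16, and by a called difference on 7 (43.8%, against 8.86% of all tested). The 16 were chosen on these same arrays, so the share is a description.

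The largest differences among the 97 lay in the other direction and came from a single cluster of related probe sets, Ta.27457, which took ranks 1 to 4 of the lower set. Affymetrix groups probe sets built on overlapping transcript sequences under such a cluster number, and these 4 carry the suffix _x_at, given to probe sets that share probes with other sequences. Their signals are therefore not independent of each other. The first read 11.93, 12.21 and 12.55 in embryo and 11.60, 11.56 and 11.89 in endosperm. In pericarp it read 4.47 and 4.24, in epiderm 5.78 and 5.28, and in crease 4.07, 4.71 and 7.64. The filial arrays were all at 11.56 or more and the maternal ones were below background except for crease replicate 3. The side means differed by -6.84 (SE 0.28, limma adjusted p = 1.12e-21), with a gap of 6.15.

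The second had the largest difference among the 97. It read 12.28, 12.11 and 11.89 in embryo, 9.74, 10.17 and 9.93 in endosperm, and between 2.80 and 4.76 on the 7 maternal arrays. The side means differed by -7.50 (SE 0.20, limma adjusted p = 5.72e-27), a 182-fold difference as fitted, which depends on the background because all maternal arrays lay below it. Pericarp against the filial mean, within the same extraction method, gave -7.8.

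The cluster has 3 more probe sets on the array, and these were not called in all pairs. The probe set numbered 5 in the cluster had means of 4.45 in embryo and 5.94 in endosperm, against 4.69, 4.14 and 6.26 in crease, pericarp and epiderm. Those numbered 6 and 8 read 6.25 and 6.01 in embryo and 7.01 and 7.72 in endosperm, with maternal means between 4.74 and 5.65. Their side means differed by -1.54 and -1.86, and their maternal arrays lay below their filial ones. They missed only the fold minimum against embryo, number 6 in crease (-0.60) and number 8 in crease (-0.84) and pericarp (-0.99). In vegetative tissue all 7 probe sets were bright. The 4 members had group means of 10.69 to 14.66 over the 11 vegetative groups, each highest in stem at stage 75, and the other 3 had 10.42 to 14.65.

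Ranks 6 and 7 of the lower set, from other clusters, had a like profile. The probe set at rank 7 read 11.87, 12.23 and 12.03 in embryo, 10.52, 10.21 and 10.80 in endosperm, and between 4.54 and 7.8 on the maternal arrays. Rank 6 read 10.47, 10.92 and 10.87 in embryo, 9.25, 9.55 and 9.99 in endosperm, and between 4.52 and 6.75 on the maternal arrays. Both were at 9.08 or more in all 11 vegetative groups and highest in stem at stage 75. Crease replicate 3 was the highest maternal array for ranks 1, 3, 4, 6 and 7, at 7.64, 6.99, 5.51, 6.75 and 7.8, while the other crease arrays lay between 3.98 and 6.16. Without crease replicate 3, 15 of the 16 higher and 79 of the 81 lower probe sets still held.

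Other lower probe sets differed in which filial tissue led. At rank 5, embryo read 11.12, 11.02 and 11.15 and endosperm 8.95, 8.42 and 8.54, against 3.48 to 4.73 on the maternal arrays. At rank 9, endosperm led with 10.28, 10.48 and 10.88 over 9.42, 9.76 and 9.62 in embryo, and the maternal arrays lay between 3.35 and 6.58. At rank 32, endosperm reached 12.96, 13.39 and 13.70, embryo 10.33, 10.70 and 11.27, and the maternal tissues spread from 6.25 in crease to 9.47 in pericarp. Embryo exceeded endosperm on 55 of the 81 and by a called difference on 21 (25.9%, against 9.15% of all tested). Endosperm exceeded embryo by a called difference on 8 (9.88%), near the 8.86% of all tested. The 81 were chosen on these same arrays, so both shares are a description.

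The 3 lower members with a gene were LOC778400, LOC542771 and LOC542837. LOC778400 had means of 9.22 in embryo and 6.97 in endosperm against 3.01 in crease, 3.39 in pericarp and 5.33 in epiderm. The side means of LOC778400 differed by -4.19 (SE 0.26, limma adjusted p = 3.98e-16), and all maternal means were below background. LOC542771 differed by -1.90 (SE 0.20, adjusted p = 8.19e-10) and LOC542837 by -1.58 (SE 0.21, adjusted p = 1.19e-07). LOC542837 was above background on every seed array, between 6.50 and 7.59 on the maternal side and between 8.08 and 9.28 on the filial side.

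The 97 probe sets came from 16 clusters in the higher direction and 65 in the lower. Besides Ta.27457 there were 11 clusters with more than 1 lower member, so the 81 are fewer transcripts than probe sets. Probe sets with the suffix _x_at made up 17 of the 81 (21.0%) and 3 of the 16 (18.8%), against 11.1% of all tested probe sets. For 42 of the 81 the 3 maternal means were all below background, and for 5 of the 16 both filial means were, so their fitted differences depend on the background level.

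The signal levels of the vegetative groups took no part in choosing the 97, but their arrays entered the estimate of spread behind the p-values. Fitted on the 5 seed groups alone, 17 higher and 83 lower held, with 13 and 80 of the members kept. The lower probe sets, which were dim in the maternal seed tissues, were often bright elsewhere in the plant. Of the 81, 30 (37.0%) lay above background in all 11 vegetative groups, 47 (58.0%) in some and 4 (4.94%) in none. Over all tested probe sets the shares were 21.5%, 25.8% and 52.7%. These counts depend on the background level. At a level of 7 they were 19 (23.5%), 53 (65.4%) and 9 (11.1%), against 12.1%, 23.4% and 64.5% of all tested. By group, between 63.0% and 82.7% of the 81 were above background, against 33.5% to 35.1% of all tested. The highest shares were in root and in stem at stages 45 and 59, each at 82.7%, and the lowest was in leaf at stage 85. Because 74 of the 81 had both filial means above background, they were brighter than the array as a whole to begin with, and the shares are a description.

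The shares of the higher probe sets were nearer to those of the array as a whole. These probe sets too were brighter than the array to begin with, as 14 of the 16 had all 3 maternal means above background. Of the 16, 3 (18.8%) lay above background in all vegetative groups, 4 (25%) in some and 9 (56.3%) in none, and by group 25% to 37.5% were above it. Among those below background on every vegetative array, the largest gap in the higher direction belonged to rank 2, whose group means were 7.25 in crease, 7.31 in pericarp and 7.51 in epiderm, 3.61 in embryo and 5.66 in endosperm. Its highest vegetative array read 5.93, just under the background level. In the lower direction it was rank 29, with 5.18 to 6.76 on the maternal arrays, 7.96 to 8.16 in embryo, 8.15 to 8.73 in endosperm and at most 5.80 on a vegetative array.

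**Figure D4:**
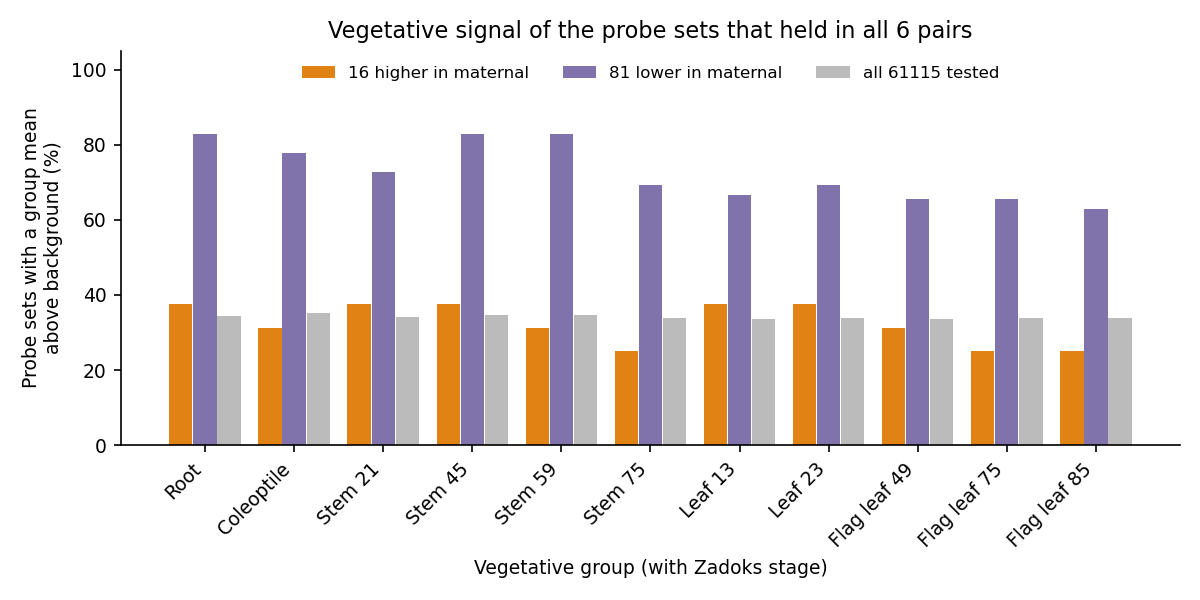
Percentage of probe sets whose group mean lay above the background level of 5.99 in each of the 11 vegetative groups, for the 16 higher members (orange), the 81 lower members (purple) and all 61115 tested (grey). The purple bars stand between 63.0% and 82.7%, and the grey ones between 33.5% and 35.1%.

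Among genes with a descriptive symbol, the thionins differed most between the sides. Thionins are small, cysteine-rich antimicrobial proteins of plants, well known from the wheat endosperm. All 3 thionin genes that could be named were higher on the maternal side in the mean contrast, and none held in all 6 pairs. TTHV read 12.44, 12.80 and 13.25 in crease, 10.21 and 9.28 in pericarp, and 9.08 and 7.42 in epiderm. In endosperm it read 7.96, 8.36 and 8.23, and in embryo 4.19, 4.41 and 5.08. Crease was highest, embryo was below background, and epiderm overlapped endosperm. The side means of TTHV differed by 3.90 (SE 0.19, limma adjusted p = 5.01e-19), with 8.27 for crease against embryo and 0.07 (adjusted p = 0.94) for epiderm against endosperm.

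THI1.1 was bright in 4 of the 5 tissues. It read 14.47, 14.52 and 14.42 in crease, 13.79 and 13.67 in pericarp, 14.13 and 13.33 in epiderm, and 13.90, 13.88 and 13.29 in endosperm. In embryo it read 7.17, 8.22 and 9.13, so the side difference of 3.05 (SE 0.20, limma adjusted p = 1.25e-15) for THI1.1 came with a difference of 0.04 (adjusted p = 0.97) between pericarp and endosperm. A second THI1.1 probe set gave 2.95. THI1.2 was above background only in crease, at 7.00, 7.08 and 7.46, and differed by 1.08 (SE 0.12, limma adjusted p = 3.7e-09). The THI1.2 difference dropped under the minimum of 1 without epiderm replicate 1, at 0.93, and with spike centring, at 0.74. No vegetative group mean of a thionin probe set exceeded 4.59. No storage protein or starch gene could be named as a further endosperm marker, so whether the maternal dissections held endosperm RNA was not tested.

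**Figure D5:**
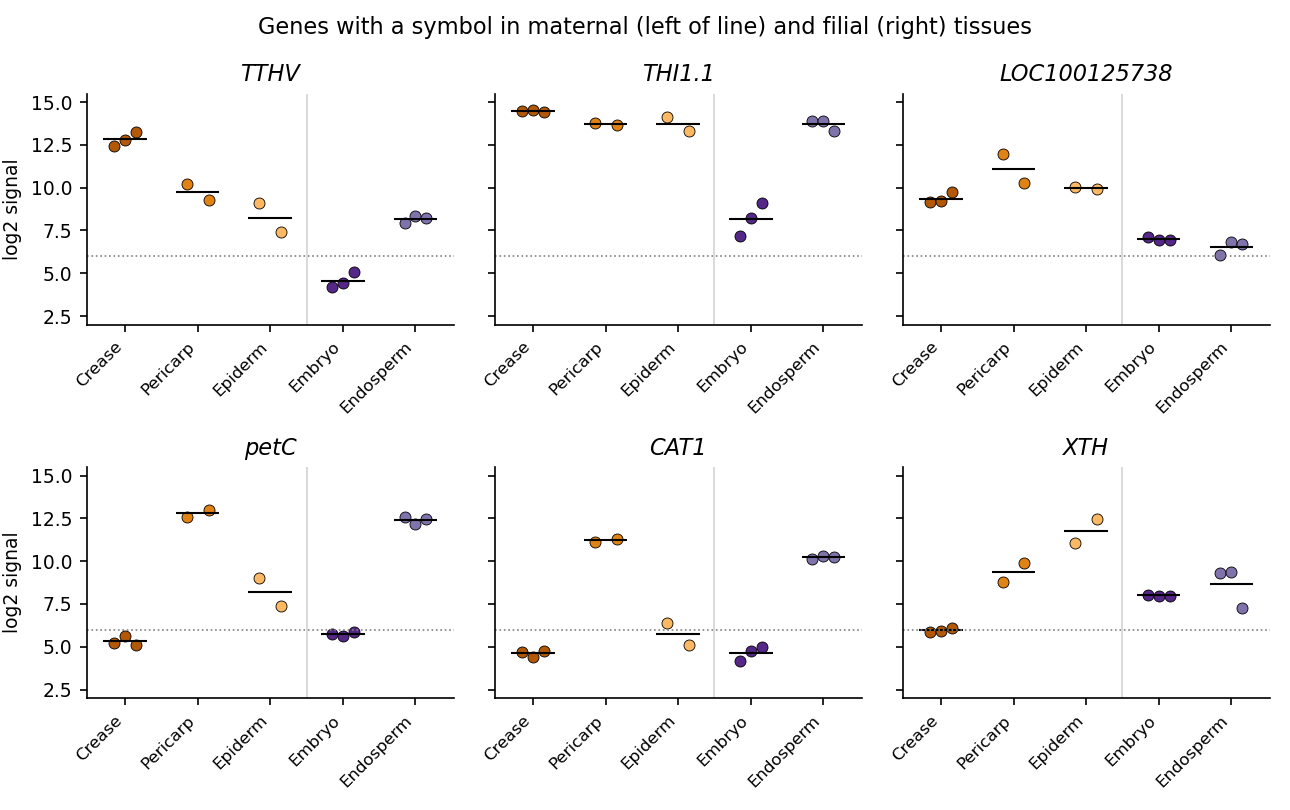
Log2 signal of 6 genes on the 13 seed arrays, with maternal tissues left and filial tissues right of the grey line. Points are arrays, black bars are group means and the dotted line is the background level of 5.99. LOC100125738 separates the sides, the thionins TTHV and THI1.1 are low in embryo, petC and CAT1 are high in pericarp and endosperm, and XTH is highest in epiderm.

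The genes petC, CAT1, FBP and GAPN were each higher in pericarp than in crease, both maternal, and were not called between the side means. The gene petC encodes the Rieske iron-sulfur subunit of the photosynthetic cytochrome b6f complex. Its signal was 12.57 and 13.00 in pericarp and 12.60, 12.18 and 12.48 in endosperm, and it was at or below 5.86 in all crease and embryo arrays. Epiderm lay between, at 8.99 and 7.41. The side means of petC differed by -0.32 (limma adjusted p = 0.0637), while crease and pericarp, both maternal, differed by -7.47 (adjusted p = 1.01e-26). CAT1, a catalase that breaks down hydrogen peroxide, had the same order, with means of 11.22 in pericarp, 10.23 in endosperm, 5.75 in epiderm, and 4.63 in crease and in embryo.

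FBP, a fructose-1,6-bisphosphatase, and GAPN, a non-phosphorylating glyceraldehyde-3-phosphate dehydrogenase, were also highest in pericarp. FBP had means of 9.85 in pericarp and 8.72 in endosperm against 6.63 in epiderm, 5.52 in crease and 5.39 in embryo. GAPN had 9.03 in pericarp, 7.65 in endosperm and at most 6.15 in the other tissues. Second probe sets of petC, CAT1 and FBP did not follow these patterns, with seed means of at most 3.75, 4.90 and 6.51. In the sources used here, no chlorophyll-binding, Rubisco or photosystem gene could be named. The pericarp label was checked only by petC, whose signal pericarp shared with endosperm. FBP had root and seedling leaf means of 4.87 and 12.39, and petC had 5.27 and 13.86. Whether FBP marks photosynthetic tissue here was not tested. Whether the endosperm dissections held pericarp RNA was not tested.

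The nameable cell wall and cutin genes were lowest in crease on the maternal side, and neither was called between the side means. XTH, a xyloglucan endotransglucosylase that remodels cell walls, read 11.09 and 12.46 in epiderm, 8.81 and 9.90 in pericarp, and 5.89, 5.92 and 6.07 in crease. It read 8.04, 7.98 and 7.98 in embryo and 9.30, 9.38 and 7.28 in endosperm. Epiderm lay above every other tissue and crease below, and the side means of XTH differed by 0.70 (limma adjusted p = 0.112). CYP86-TA, a cytochrome P450 of the family that oxidizes fatty acids for cutin, had means of 8.66 in pericarp, 8.10 in epiderm, 8.05 in endosperm, 7.25 in crease and 6.94 in embryo. Its side difference of 0.51 (limma adjusted p = 0.00143) was under the minimum of 1, and crease minus pericarp was -1.41 (adjusted p = 3.4e-07). The probe sets of CYP86-TA disagreed in crease, where the one named for the 3' end read 4.16 against 9.61 in pericarp and its side difference was 0.11 (adjusted p = 0.778). CYP86-TA was the only nameable marker of epidermis and was not highest in epiderm, and no marker listed for crease, embryo or aleurone could be named, so the tissue labels were otherwise not checked.

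Sucsyn, a sucrose synthase that cleaves sucrose for use in the grain, was bright throughout the seed. Its means were 12.44 in crease, 11.60 in pericarp, 11.63 in embryo and 11.68 in endosperm, and epiderm was lowest with 10.96 and 11.05. Crease exceeded epiderm by 1.44 (limma adjusted p = 9.4e-06), and the side difference of Sucsyn was 0.03 (adjusted p = 0.919). Of the other named genes, SAHH, which recycles S-adenosylhomocysteine, differed by -0.47 (limma adjusted p = 0.00473) with crease at 11.34 and the other tissues between 13.11 and 13.80. G-6-PDH, a glucose-6-phosphate dehydrogenase, differed by -0.62 (limma adjusted p = 0.000415), again with crease lowest at 7.37 against 8.95 to 9.12.

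The housekeeping controls gave no call between the side means, though some differed between tissues of the maternal side. Ubiquitin differed by -0.06 (limma adjusted p = 0.625), gapdh by 0.00 (adjusted p = 0.989), actin by -0.05 (adjusted p = 0.803) and 18SrRNA by -0.01 (adjusted p = 0.993). For 18SrRNA, epiderm exceeded pericarp by 3.26 (limma adjusted p = 0.000951). Crease minus epiderm was 1.13 (adjusted p = 9.46e-07) for gapdh and -1.02 (adjusted p = 9.45e-08) for ubiquitin. Actin means lay between 6.52 and 6.85 in all 5 tissues. The probe sets of ef1a disagreed, at 0.16 (adjusted p = 0.346) for the brightest and -0.67 (adjusted p = 0.00152) for the one named for the middle of the gene. TUBA, a tubulin gene, differed by -0.01 (adjusted p = 0.954) and was between 13.27 and 13.72 in all 5 tissues. TBP1, which encodes a TATA-binding protein, differed by -0.01 (adjusted p = 0.967), with crease above pericarp by 1.23 (adjusted p = 7.23e-10). The dehydrin gene COR410 and PFK were below background on all 13 seed arrays and were not called. Of the lists of storage protein, starch, inhibitor, flavonoid, cell death, histone, ribosomal, aquaporin and transcription factor genes, no member could be named from the table.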

How the data were processed

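The deposited table holds log2 values that the authors made with RMA (robust multi-array averaging), per the submitters' processing notes. Its software and version are not given here, and base 2 was inferred from RMA and the range of 1.92 to 15. RMA gives arrays like distributions, which hides a shift common to most transcripts, and the number of arrays limits the precision. Wheat probes may bind rye transcripts unequally, which was not measured. From the 61290 probe sets, 111 AFFX controls and 64 reporters were left out, leaving 61115. Differences were tested with limma 3.58.1 (R 4.3.3), fitting group means to all 48 arrays (32 residual and 5.59 prior degrees of freedom), two-sided, with Benjamini-Hochberg adjustment within each contrast. A call needed an adjusted p under 0.05 and a difference of at least 1. A second fit added 25 control probe sets of 8 wheat genes. The script was tested on simulated data.

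Gene names came from the platform annotation, which lists 771 genes, 13 by a descriptive symbol, and no probe set with several genes. For a gene with several probe sets the one with the highest mean is given. Named were non-overlapping members with a gene, called genes of the lists and the control genes. The members and lists were chosen with earlier results of these data known, and the other members described by rank, as well as the symbols outside the lists, were chosen after their values were seen. Alternatives covered scaling, dim probe sets, the variance model, thresholds, tissues and single arrays. No sequences were used here.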

Additional observations from a re-analysis of the deposited data

Results flagged for a closer look

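The maternal tissues moved in opposite directions from the filial mean for 5 genes, and a direct test between the maternal tissues gave the difference in each case by limma. Crease minus the filial mean was -2.79 for CAT1 and pericarp minus the filial mean was 3.79, a difference of -6.58 (adjusted p = 6.89e-24). For the same gene epiderm was at -1.68, which differed from pericarp by -5.47 (adjusted p = 5.21e-19). FBP was at -1.53 in crease and 2.79 in pericarp, a difference of -4.32 (adjusted p = 1.11e-17). GAPN was at -1.27 in crease and 2.12 in pericarp, a difference of -3.39 (adjusted p = 4.68e-13). The gene petC was at -3.77 in crease and 3.70 in pericarp, a difference of -7.47 (adjusted p = 1.01e-26). XTH was at -2.37 in crease and 3.45 in epiderm, a difference of -5.82 (adjusted p = 1.44e-11). The filial mean averages 2 tissues that could differ widely. Embryo minus endosperm was -6.67 for petC, -5.60 for CAT1, -3.33 for FBP, -1.50 for GAPN and -0.65 for XTH. Crease minus embryo was -0.44, 0.01, 0.13, -0.52 and -2.04 for these genes in the same order. Opposite moves from the filial mean are therefore not opposite moves from each filial tissue. Crease and epiderm were extracted by another method than pericarp. In the differences of either from pericarp, method and tissue cannot be told apart.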

How the results depend on the processing

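The count of probe sets higher on the maternal side, 1647, became 2748 without crease, 940 without embryo, 4281 without endosperm, 404 at a log2 minimum of 2, 8637 with no fold minimum, 2905 within the guanidine hydrochloride method and 975 with spike centring. The count lower, 2561, became 5766 without endosperm, 381 at a minimum of 2, 10115 with no fold minimum and 5267 with spike centring. For the pairs, a minimum of 2 left 3854 (crease and embryo), 4070 (crease and endosperm), 4266 (pericarp and embryo), 803 (pericarp and endosperm), 4770 (epiderm and embryo) and 1645 (epiderm and endosperm), no fold minimum gave 24135, 24946, 19273, 7656, 19899 and 9188, and spike centring gave 16211 for crease and embryo. The 16 and 81 that held in all pairs became 185 and 130 without crease, 57 and 338 without pericarp, 255 and 224 without epiderm, 39 and 520 without embryo, 1079 and 2889 without endosperm, 1 and 25 at a minimum of 2, 68 and 205 with no fold minimum, and 7 and 133 with spike centring. Fewer tissues mean fewer conditions to meet, and the cause of the shift under spike centring was not tested. With single arrays left out, these counts ran from 13 to 22 and from 56 to 89, and 5 of the 16 and 41 of the 81 held in every such fit. The replicate block, fitted on the 5 seed groups, gave 18 and 82, with 13 and 76 of the members kept. Same-numbered arrays of different tissues deviated together weakly (median correlation 0.07, 5 of 23 above 0.1). For differently numbered arrays the median was -0.03, with 1 of 44 above 0.1. The numbers were not taken to pair samples in the main fit, and a replicate effect was not tested. Single genes were not scored at other fold minimums, with a tissue left out or within the guanidine hydrochloride method alone. In the settings where they were scored, THI1.2 alone of the 8 called genes left the call. It was at 0.93 without epiderm replicate 1 and 0.74 with spike centring. In the main fit LOC606369 (1.46), LOC542771 (-1.90), LOC542837 (-1.58) and THI1.2 (1.08) differed by less than 2 in size. Over the 612 single-gene settings, which include those of the 8 called genes, 52 values that were not called changed sign.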
